A study of Mus musculus with 6 samples.

Results

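The 9 genes described here encode cell-surface receptors, a signaling adaptor and cytoplasmic kinases that relay growth factor and cytokine signals. They are the transforming growth factor beta receptor Tgfbr1, the natriuretic peptide receptors Npr2 and Npr3, the cytokine receptor chains Cntfr and Il11ra1, the adaptor Shb, and the kinases Map3k7, Ripk2 and Stk3. They were chosen by function and by position, as genes on stretches of chromosomes 4 and 15 where the row names of the count table fit the reads, out of 56953 features in the table and 14550 that passed the filter on low counts. All 9 passed that filter.

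RNA was sequenced from tailbud tissue microdissected from mouse embryos at embryonic day 9.5, with 3 libraries from wild-type embryos and 3 from Fgfr1 FCPG/FCPG embryos. FCPG is an allele of the fibroblast growth factor receptor gene Fgfr1 in which the binding sites for intracellular effectors have been altered by point mutation, and the embryos carried it on both copies. The labels give the cells as neuromesodermal progenitors (NMPs), somitic mesoderm and intermediate mesoderm, and the comparison asks how transcription in this tissue differs when those sites are changed. Library totals ran from 16984568 to 27316475 counts, and the labels do not say whether the libraries of a group came from separate embryos or litters, so p-values measure the spread between these libraries. In bulk tissue, fewer cells of a type and less RNA per cell cannot be told apart.

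As background, these genes sit at the top or in the middle of pathways that run beside fibroblast growth factor signaling. Tgfbr1 is the type I receptor serine/threonine kinase for transforming growth factor beta and some related ligands, and Map3k7, also called TAK1, can be activated downstream of it and of cytokine and pattern-recognition receptors. Npr2 is a guanylyl cyclase that responds to C-type natriuretic peptide by making cyclic GMP, a signal that opposes fibroblast growth factor signaling in growing cartilage, whereas Npr3 lacks a cyclase domain and clears natriuretic peptides.

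Gene names could be trusted only in part. Of 910 genes from ubiquitously expressed families, 303 reached a mean of 10 CPM, the read count scaled to a common library total. On 3 stretches, of chromosomes 4, 6 and 15, 41 of 41 did, and their median level was 316 CPM. Outside them 262 of 869 did, at a median level of 0.57 CPM. The choice of the stretches sets part of this contrast. All 9 genes lay on these stretches, with Npr3 and Stk3 on chromosome 15 and the other 7 on chromosome 4. For each of the 9, the 6 nearest ubiquitous genes, 3 on each side, all reached 10 CPM. The stretches were chosen by the detection of such genes, so this follows in large part from that choice. It is not separate support for the names. For Ripk2 the nearest such genes were also far away, 4.87 Mb before it (Ints8) and 8.73 Mb after it (Ndufaf4). With a detection minimum of 20 CPM in place of 10, a setting chosen after seeing the data, the stretches held 8 of the 9. Stk3 fell outside, so by that setting alone its name is the least secure. Polr2k, the last ubiquitous gene of the chromosome 15 stretch, stood at 19.5 CPM, just under that minimum. Whether Polr2k alone moved the end of the stretch was not tested. None of the 8 tailbud and presomitic mesoderm markers examined, such as T and Tbx6, lay on the stretches, so the tissue label was not checked against them.

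Il11ra1 is shown first by sequence, because near-identical copies of it lie beside it on chromosome 4 and its counts are least certain for that reason. Over the 1299 coding bases of the Il11ra1 transcript in GENCODE M21, Il11ra2 and the predicted gene Gm13305 each differed at 13 bases, an identity of 99%. The following 61 bases, coding positions 327 to 387 counted from the A of the start codon, are shown 5′ to 3′ to make plain how little separates the copies, with the single base that differs in capitals.
Il11ra1: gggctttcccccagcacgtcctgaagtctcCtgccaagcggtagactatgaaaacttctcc
Il11ra2: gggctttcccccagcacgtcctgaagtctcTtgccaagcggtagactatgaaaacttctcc
Gm13305: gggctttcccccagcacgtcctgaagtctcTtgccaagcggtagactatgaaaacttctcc
A short read from this stretch that misses the capital base fits all 3 genes. Map3k7 shared 529 bases at 97% identity with the processed pseudogene Gm8188, and no other gene of the 9 had a stretch of at least 100 bases at 95% identity or more in the transcript of another gene.

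In wild type, levels per kilobase of exon spanned a wide range. Tgfbr1 was the most abundant, at 110 ± 7.6 CPM per kb (SD, n = 3), followed by Map3k7 at 81.2 ± 3.0 and Cntfr at 64.7 ± 22 CPM per kb. Shb stood at 46.1 ± 4.5, Il11ra1 at 22.0 ± 0.71, Stk3 at 20.2 ± 0.97 and Ripk2 at 16.0 ± 0.86 CPM per kb. The natriuretic peptide receptors were lowest, with Npr2 at 8.19 ± 1.4 and Npr3 at 2.85 ± 0.58 CPM per kb. Among neighbours in this order, the wild-type libraries of Map3k7 and Cntfr overlapped, as did those of Cntfr and Shb, and all other neighbouring pairs were separate. In the mutant, Cntfr reached 108 ± 18 CPM per kb, beside Tgfbr1 at 110 ± 11, and Npr3 at 6.94 ± 4.5 beside Npr2 at 6.46 ± 3.4 CPM per kb.

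**Figure D1:**
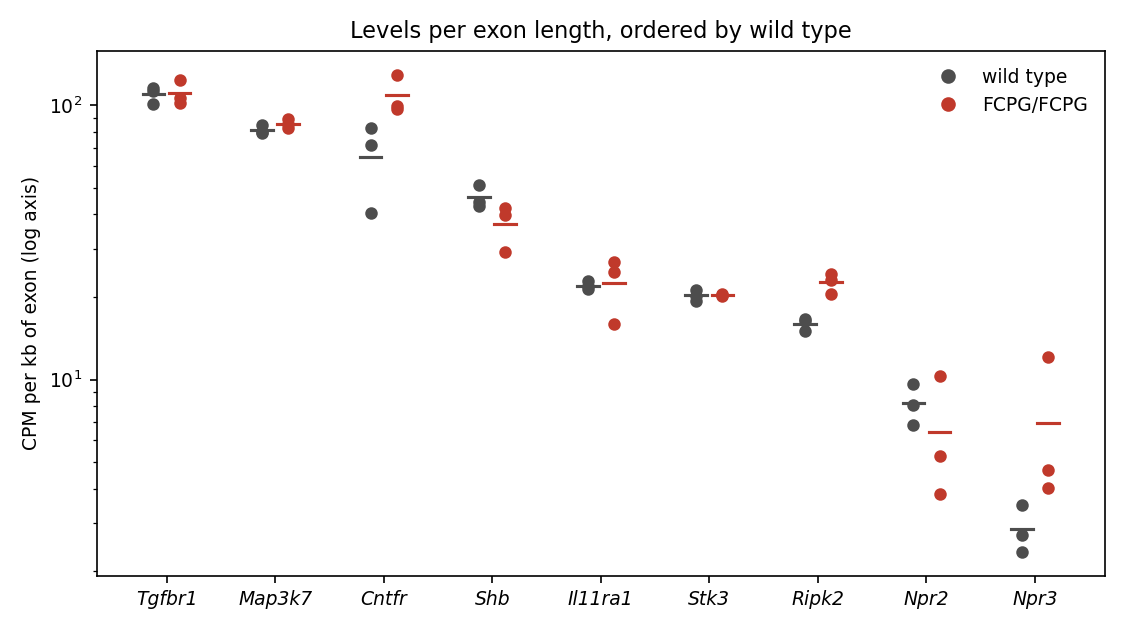
Level of each gene in CPM per kilobase of merged exon length, on a log axis, in the 3 wild-type libraries (grey) and the 3 Fgfr1 FCPG/FCPG libraries (red), with a bar at each mean. Tgfbr1 leads in wild type at 110 CPM per kb, Npr3 is lowest at 2.85 CPM per kb, and Cntfr lies beside Tgfbr1 in the mutant.

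In the comparison of genotypes, 1 of the 9 genes passed the test and 8 did not. Ripk2 was higher in the mutant, and no gene was lower. Over all 14550 tested features, 4.25% were called higher and 3.67% lower, and the share among the 9 rests on 1 gene. The median log2 fold change of the 9 genes was 0.03, against -0.01 over all tested features. Over the 515 tested genes of the 3 stretches the median was 0.09. At an unadjusted p below 0.05, Npr3 and Cntfr passed beside Ripk2, all 3 of them higher in the mutant. At that threshold 13.1% of all tested features were higher and 12.5% lower, and among the 515 tested genes of the 3 stretches 22.9% were higher and 11.5% lower. In the authors' deposited table, 2 of the 9 passed an adjusted p of 0.05, Ripk2 and Cntfr, both higher. Of the 14918 features with an adjusted p in the authors' deposited table, 6.69% were higher and 5.39% lower by that rule.

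Ripk2 encodes a kinase that carries signals from the intracellular sensors Nod1 and Nod2 to the transcription factor NF-kappaB. Wild-type replicates 1 to 3 read 42.3, 46.01 and 46.8 CPM, and the mutant replicates, in the same order as for every other gene, read 58.0, 64.9 and 68.2 CPM. Every mutant library lay above every wild-type library, with little spread in either group. The share of counts in rows named as mitochondrially encoded mRNA also separated the genotypes, at 13.9, 11.2 and 10.8% in wild type and 6.23, 5.3 and 5.91% in the mutant. These rows lie outside the 3 stretches, and their names were not checked. The mean of Ripk2 rose from 45.0 ± 2.42 to 63.7 ± 5.22 CPM (SD, n = 3 per group). On the log2 scale the rise was 0.50 ± 0.10 (SE; edgeR quasi-likelihood test, adjusted p = 0.0234). This is a 1.42-fold rise, with a 95% interval of 1.21 to 1.65-fold. The log2 fold change held between 0.46 and 0.57 when any 1 library was left out, but leaving out wild-type replicate 1, 2 or 3 ended the call (adjusted p = 0.0666, 0.105 and 0.0695 by edgeR) as did a term for embryo sex (adjusted p = 0.0643 by edgeR), with which the log2 fold change was 0.49. With library sizes that leave out mitochondrially encoded genes, Ripk2 had the same log2 fold change, 0.50 (adjusted p = 0.0234 by edgeR). The TMM normalization that followed offsets most of a change in starting library sizes. This fit therefore does not test the part of the mitochondrial share. The authors' deposited table gives Ripk2 a log2 fold change of 0.51 and an adjusted p of 0.00126.

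Among 302 other genes of the 3 stretches with a mean of at least 5 CPM, those with the profile nearest to Ripk2 across the 6 libraries were Tsga13 and Tmem209. The root-mean-square difference of their centred log2 CPM values from those of Ripk2 was 0.044 and 0.051. The profiles span both genotypes, so fold changes similar to that of Ripk2 follow from this choice of genes. Tmem209, which encodes a protein of the nuclear envelope, rose from 185, 182 and 196 CPM to 251, 260.2 and 282 CPM, a log2 fold change of 0.50 (adjusted p = 0.0123 by edgeR). Tsga13, named as a testis-specific gene, rose from 11.8, 13.5 and 13.97 CPM to 17.5, 18.4 and 19.1 CPM, a log2 fold change of 0.49 (adjusted p = 0.0442 by edgeR).

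Map3k7, the kinase that acts after Ripk2 in the route to NF-kappaB and after Tgfbr1 in the non-Smad branch of transforming growth factor beta signaling, stood at 512, 543 and 509 CPM in the wild-type libraries, and the mutant libraries read 549, 531 and 569.6 CPM. The groups overlapped, and the spread within each was small. Its log2 fold change was 0.08 ± 0.07 (SE, adjusted p = 0.536 by edgeR), and the 95% interval of the fold change, 0.944 to 1.18, excludes a change of the size seen for Ripk2.

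Tgfbr1 stood at 659, 752 and 736 CPM in the wild-type libraries, and the mutant libraries read 693, 805 and 664 CPM. The values interleaved, with the highest in mutant replicate 2. The fold change was 1.01, with a 95% interval of 0.866 to 1.17 (adjusted p = 0.963 by edgeR). Of the 53 genes listed for transforming growth factor beta superfamily signaling, the only other gene on the stretches was Gdf6, a bone morphogenetic protein ligand of joint and skeletal patterning, at 11.6 ± 4.28 CPM in the wild-type libraries against 15.3 ± 5.16 CPM in the mutant ones (edgeR, adjusted p = 0.479).

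Stk3, also called MST2, is a kinase at the head of the Hippo pathway, which restrains the growth-promoting coactivators Yap1 and Wwtr1. It was the steadiest of the 9, at 118, 124 and 129.8 CPM in the wild-type libraries, and the mutant libraries read 124, 123 and 126 CPM. Its highest library exceeded its lowest 1.1-fold. The log2 fold change was 0.01 ± 0.08 (SE, adjusted p = 0.976 by edgeR), with a 95% interval of 0.886 to 1.14-fold.

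**Figure D2:**
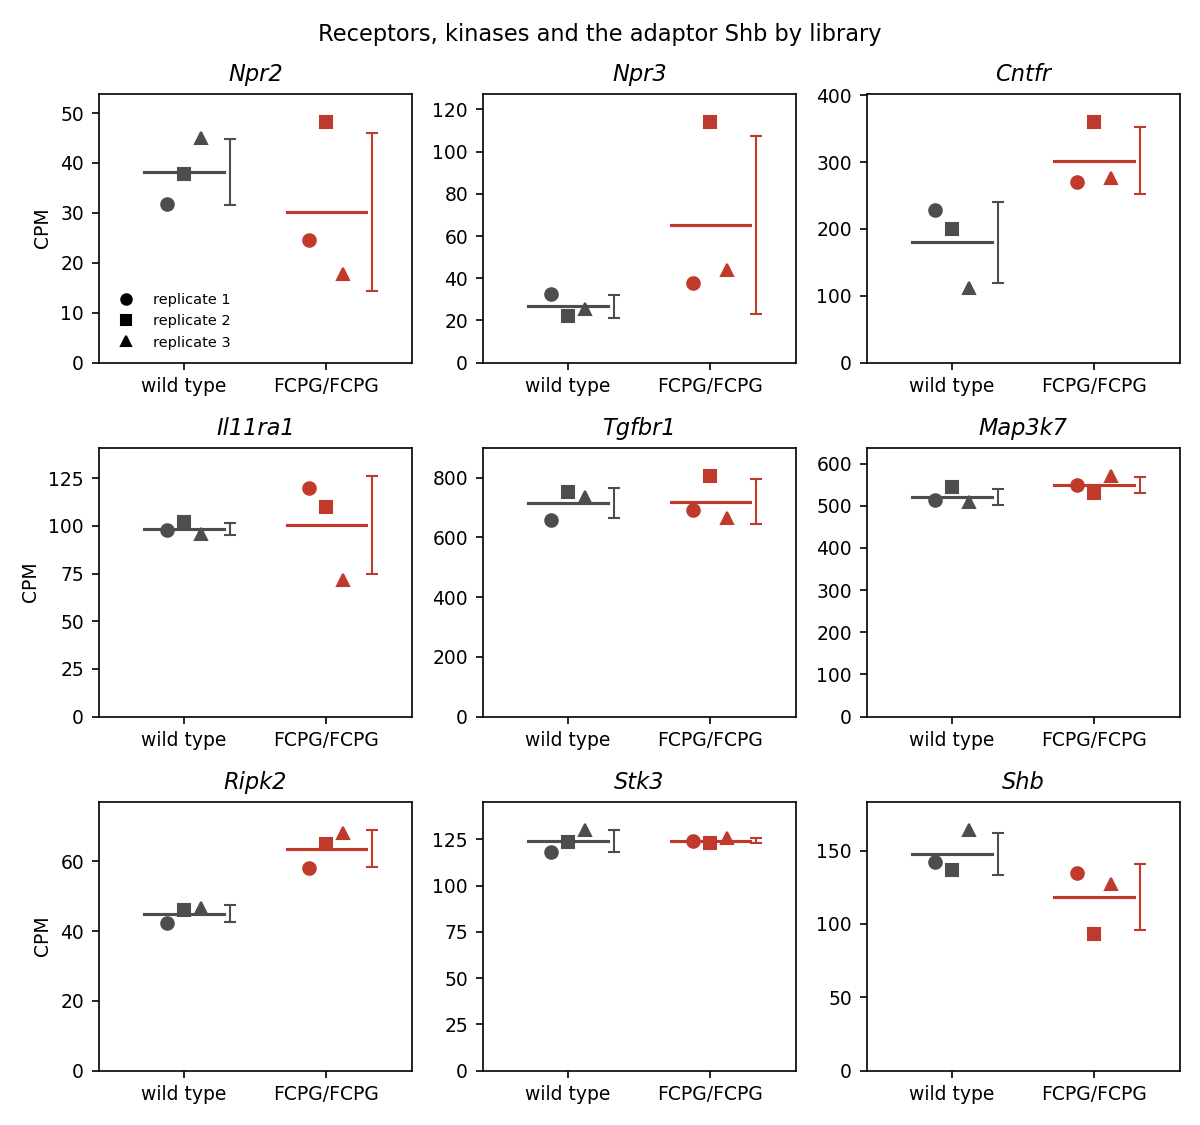
CPM of each gene in every library, with a marker shape for each replicate number, a horizontal bar at the group mean and an error bar of 1 SD (n = 3 per group); each vertical axis starts at 0. The groups do not overlap for Ripk2, Npr3 and Cntfr, which are higher in the mutant, and for Shb, which is lower. Npr3, Npr2, Cntfr and Tgfbr1 are highest in mutant replicate 2.

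The natriuretic peptide receptors had log2 fold changes of opposite sign, and neither passed the test. Npr3, the clearance receptor, stood at 32.7, 22.1 and 25.4 CPM in the wild-type libraries, and the mutant libraries read 37.8, 113.9 and 43.8 CPM. The groups did not overlap, but mutant replicate 2 stood far above the other libraries. The log2 fold change was 1.28 ± 0.39 (SE), with a 95% interval of 0.38 to 2.18, and it missed the threshold after adjustment (adjusted p = 0.0845 by edgeR). Without mutant replicate 2 it was 0.62 (adjusted p = 0.082 by edgeR), and without mutant replicate 3 it was 1.51 and passed narrowly (adjusted p = 0.0498 by edgeR). Npr3 overlaps the long noncoding gene Gm5144 on the opposite strand, which held 0.0497 CPM.

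Npr2, the guanylyl cyclase, stood at 31.8, 37.8 and 45.1 CPM in the wild-type libraries, and the mutant libraries read 24.5, 48.1 and 17.8 CPM. Mutant replicate 2 was the highest of all 6 libraries, while the other 2 mutant libraries were the lowest. Over all libraries the log2 fold change was -0.35 ± 0.33 (SE, adjusted p = 0.55 by edgeR), with an interval from -1.09 to 0.40. Without mutant replicate 2 it was -0.84 and passed the threshold (adjusted p = 0.0482 by edgeR). Of the 17 genes listed for natriuretic peptide signaling, these receptors were the 2 on the stretches, so the ligands and the cyclic GMP-dependent kinases are not described. Npr2 shares 266 exonic bases with the antisense gene Gm12473, which held 1.03 CPM, and reads of such a pair cannot be told apart where strand was not used in counting.

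Mutant replicate 2 stood apart among the mutants for Npr3, at 113.9 CPM against 37.8 and 43.8 CPM, and for Npr2, at 48.1 CPM against 24.5 and 17.8 CPM. It was the highest mutant library for 4 of the 9 genes and the lowest for 3. With 3 mutant libraries, a random order would give each of them similar counts, so these counts alone do not set mutant replicate 2 apart. Some markers of other cell types were also highest there, and others differed between the genotypes in every library. Pou3f2, a neural transcription factor and the only one of 7 neural markers on the stretches, ranged from 4.23 to 11.7 CPM in wild type and stood at 49.8, 305.6 and 20.8 CPM in the mutants. Cav1, the only one of 7 endothelial markers there, ranged from 7.97 to 14.1 CPM in wild type and stood at 60.0, 185 and 19.8 CPM. Both genes were above wild type in all 3 mutants and called higher by edgeR. Of 11 erythroid markers 4 lay on the stretches, and the 3 that passed the filter on low counts, Hemgn, Tspan33 and Tmod1, summed to 127 to 199.9 CPM in wild type and 41.4 to 56.3 CPM in the mutant. Hemgn (log2 fold change -2.26, adjusted p = 0.00627 by edgeR) and Tspan33 (-1.27, adjusted p = 0.006 by edgeR) were called lower. Tmod1 was not called (adjusted p = 0.249 by edgeR). Wnt2, the only one of 4 allantois markers there, stood at 7.79, 0.515 and 0.428 CPM in wild type and 24.9, 22.5 and 37.5 CPM in the mutant. Esrp1, the only one of 7 epithelial markers there, ranged from 136 to 174 CPM in wild type and from 71.5 to 125.7 CPM in the mutant. Neither Wnt2 nor Esrp1 passed the test, though in both the genotypes did not overlap. The part of these cell types in the values of the 9 genes was not tested. Rows named as Y-linked genes were high in wild-type replicate 1 and mutant replicates 2 and 3, so embryo sex appeared uneven as well. These rows lie outside the 3 stretches, where names are less certain, so the sex assigned from them is too. With a term for embryo sex, the log2 fold change of Npr3 was 0.97 (adjusted p = 0.18 by edgeR).

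Cntfr and Il11ra1 encode the ligand-binding chains for ciliary neurotrophic factor and interleukin 11, which signal through the shared subunit gp130 to JAK kinases and STAT3. Cntfr, a chain anchored to the membrane by a lipid, stood at 229, 199 and 112 CPM in the wild-type libraries, and the mutant libraries read 270.2, 359 and 276 CPM. The groups did not overlap. Mutant replicate 2 was the highest library, and wild-type replicate 3 was well below the other wild-type libraries. The log2 fold change was 0.74 ± 0.24 (SE), with a 95% interval of 0.19 to 1.30, and missed the threshold (adjusted p = 0.0976 by edgeR). Without wild-type replicate 3 it was 0.50, and it ranged up to 0.96 without wild-type replicate 1, with no call in any fit that left out 1 library. The Wald test of DESeq2 called it higher (log2 fold change 0.76, adjusted p = 0.00755 by DESeq2), as did the authors' deposited table, with a log2 fold change of 0.75 and an adjusted p of 0.0104.

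Il11ra1 stood at 97.8, 101.8 and 95.5 CPM in wild type, a close range, and at 119.8, 109.9 and 71.5 CPM in the mutant. The mutant libraries lay on both sides of the wild-type ones. The fold change was 1.02, with a 95% interval of 0.773 to 1.35 (adjusted p = 0.939 by edgeR). Its copies were also lowest in mutant replicate 3, with log2 fold changes of 0.05 for Il11ra2, at 19.5 ± 0.501 CPM in wild type, and 0.02 for Gm13305, at 21.2 ± 0.185 CPM. Neither passed the test, and given the shared sequence the 3 rows cannot be read as separate measurements. Il11ra1 and Ccl27a also share 8 exonic bases on opposite strands. Of the other cytokine receptors listed, Il7r lay on the stretches but did not pass the filter on low counts. The prolactin receptor Prlr was near the lower limit of detection, at 3.21 ± 1.34 CPM in the wild-type libraries against 1.31 ± 0.904 CPM in the mutant ones (edgeR, adjusted p = 0.209).

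Shb is an adaptor with an SH2 domain that binds phosphorylated tyrosines of activated growth factor receptors, Fgfr1 among them. It stood at 142, 137 and 164 CPM in the wild-type libraries, and the mutant libraries read 135, 93.0 and 127 CPM. All mutant libraries were below all wild-type libraries, though mutant replicate 1 came close to wild-type replicate 2. The fold change was 0.802, with a 95% interval of 0.637 to 1.01. On the log2 scale this was -0.32 ± 0.15 (SE), which did not pass (adjusted p = 0.215 by edgeR). Without mutant replicate 2, its lowest library, the log2 fold change was -0.16. Of the 32 genes listed as receptor tyrosine kinase adaptors and effectors, Shb alone lay on the stretches, so Frs2, Crkl and Plcg1 are not described.

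Groups that do not overlap were frequent in these data. Among all tested features, 15.8% had every mutant library above every wild-type library and 16.1% the reverse, against 3 and 1 of the 9 genes here. On the 3 stretches, which held 515 tested genes, the shares were 24.3% and 13.4%, and 8.35% were called higher and 3.3% lower.

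Of the other receptors and kinases listed for the first parts of chromosomes 4, 6 and 15, 18 of 33 lay on the stretches, 14 of these were tested and none passed the edgeR test. Together with Gdf6 this made 15 other tested genes, with a median log2 fold change of -0.07, against 0.09 over all tested genes of the stretches. At an unadjusted p below 0.05, Nr4a3, Grm8, Ptprz1, Tesk1, Sema5a and Grin3a passed, the first 3 of them higher and the last 3 lower, beside the shares of 22.9% and 11.5% among all tested genes of the stretches. Nr4a3, an orphan nuclear receptor induced by growth signals, stood at 3.32, 0.589 and 0.749 CPM in the wild-type libraries, and the mutant libraries read 5.45, 23.3 and 5.64 CPM, again highest in mutant replicate 2 (adjusted p = 0.0637 by edgeR). Tesk1, a kinase that phosphorylates cofilin, showed little spread, at 63.2, 67.3 and 68.7 CPM against 54.6, 54.2 and 51.3 CPM (adjusted p = 0.0609 by edgeR). The ephrin receptor Epha7 stood at 36.2 ± 2.39 CPM in the wild-type libraries, and the mutant libraries read 57.8, 158.7 and 27.9 CPM, so its groups overlapped. Melk, a kinase of proliferating cells, stood at 319 ± 2.84 and 337 ± 26.5 CPM, a fold change of 1.06 with a 95% interval of 0.931 to 1.2.

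**Figure D3:**
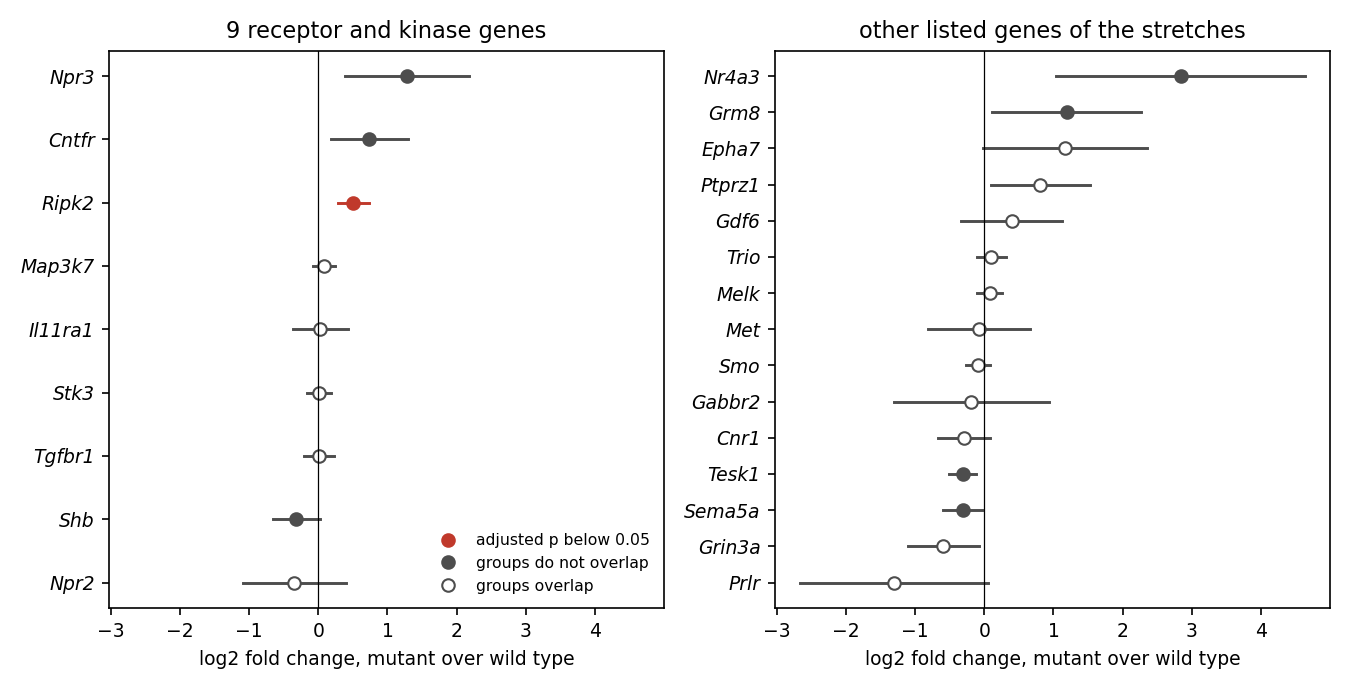
Log2 fold change of mutant over wild type with its 95% interval for the 9 genes (left) and the 15 other listed genes on the stretches (right), from edgeR; red marks an adjusted p below 0.05, filled points genes whose groups do not overlap and open points genes whose groups do. Ripk2 alone is red, Npr3 at 1.28 has a wider interval than Ripk2 at 0.50, and Map3k7, Stk3 and Tgfbr1 have narrow intervals around 0.

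**Figure D4:**
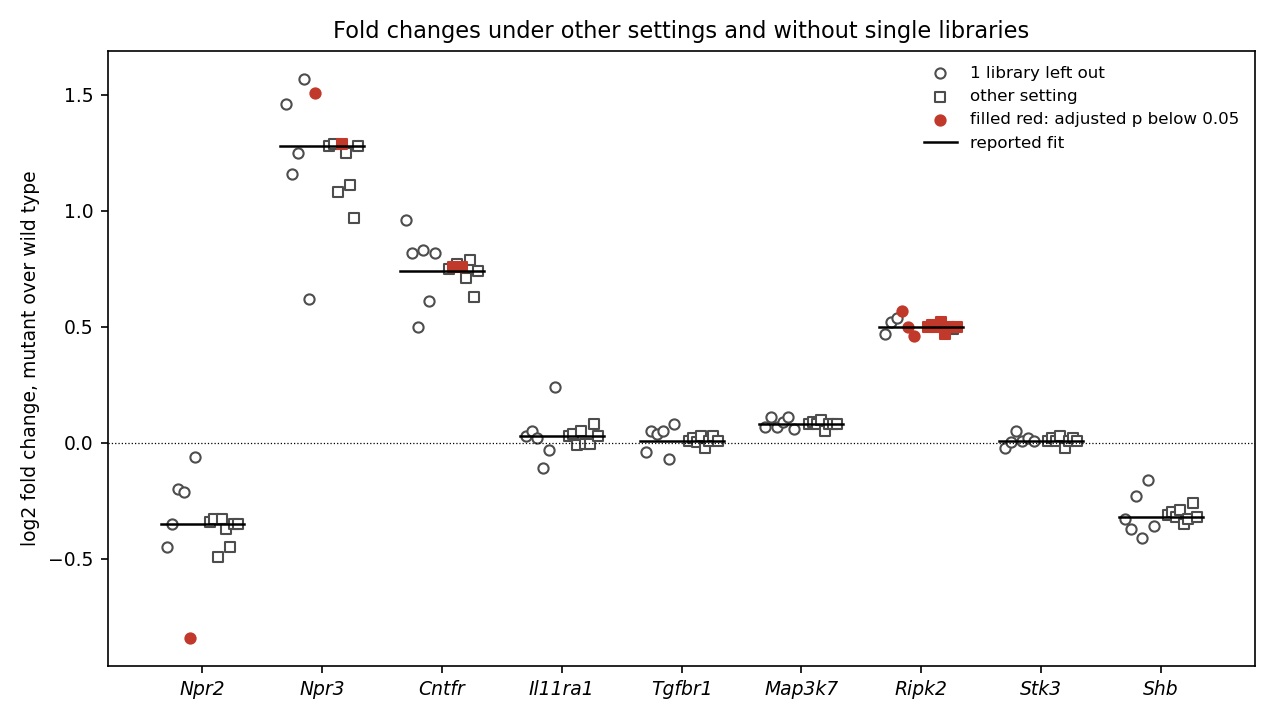
Log2 fold change of each gene with 1 library left out (circles) and under the other settings (squares), red where the adjusted p was below 0.05, with a black line at the reported value. Ripk2 keeps its size, between 0.46 and 0.57 without single libraries, while Npr3 ranges from 0.62 to 1.57 and Npr2 from -0.84 to -0.06.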

How the data were processed

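Polyadenylated RNA libraries were made with a stranded kit, per the labels' protocols. The deposited values are raw read counts, 1 row for each Ensembl gene. Tools named in the submitters' processing notes are featureCounts, Bowtie, DESeq and DESeq2, with the build mm39. Versions, the annotation and the strand setting are not given in the sources used here. Beside the counts, the authors deposited a DESeq2 table with a mean normalized signal, log2 fold changes, a Wald score and p-values, used only for comparison. Its score was not used.

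IDs were matched by their first 18 characters, since 12804 are longer than that in the table, and 52029 of 56953 had a symbol. Columns, which carry an unexplained 10-5, were assigned from the genotype letter and number in each name. Gene order, exon lengths and transcripts came from GENCODE M21, an older build than mm39, so no coordinates are given. A hidden Markov model with 2 states (chance of detection 0.95 or 0.25, of switching 0.03) over the 910 ubiquitous genes kept runs of at least 6 with a posterior above 0.95. The 9 genes, the lists, the families and this model were chosen with earlier results of these data known. An earlier version of the ubiquitous list, which held single genes seen expressed on the stretches, was replaced.

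Differences were tested on counts in edgeR 4.0.16 under R 4.3.3, by glmQLFTest (filterByExpr, TMM, no covariate), with Benjamini-Hochberg adjustment over 14550 features and a threshold of 0.05; the script was tested on simulated data. CPM values use TMM-scaled library sizes. The unscaled library totals over all features ran from 16984568 to 27316475 counts. All 9 genes were named; of the pathway lists, genes on the stretches were named where at most 6 lay there, and the values given from the longer list were chosen after they were seen, since none of it was called. Profiles were compared on log2 of CPM plus 0.5. Alternatives were DESeq2 1.42.0 (size factors, Wald test), limma-voom 3.58.1, other filters, a replicate block, embryo sex, library sizes without mitochondrially encoded genes, and each library left out. Replicate numbers did not pair the libraries (correlations of deviations from group means -0.229, -0.00512 and -0.00752). Groups of 3 were not tested for outlying samples.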

Additional observations from a re-analysis of the deposited data

How the results depend on the processing

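Of the 9 genes, 1 was called higher in the reported fit, against 2 with the DESeq2 Wald test (Ripk2 and Cntfr), 3 with no low-count filter (Ripk2, Npr3 and Cntfr), 0 with a term for embryo sex and 0 to 2 without 1 library; 0 were called lower, against 0 to 1 without 1 library. With no low-count filter the standard error of Npr3 was 0.14 instead of 0.39; the cause was not tested. Of the 15 other listed genes, 0 were called higher, against 1 with the DESeq2 Wald test, 4 with no low-count filter and 0 to 2 without 1 library, and 0 lower, against 1 with no low-count filter, 1 with the filter of 5 CPM in 3 libraries and 0 to 1 without 1 library. With the replicate block Ripk2 alone was called (adjusted p = 0.0361 by edgeR), as without it. Over all features, 618 were higher and 534 lower, against 941 higher with the DESeq2 Wald test, 1352 and 1145 with no low-count filter, 273 and 264 with a term for embryo sex, and 66 to 783 and 63 to 565 without 1 library. Signs turned only for genes that were never called. Their reported log2 fold changes were near 0, except that Gabbr2 was at -0.19 with a wide standard error of 0.49. With the filter of 5 CPM Tgfbr1 was at -0.02, Il11ra1 at -0.0046 and Stk3 at -0.02; Il11ra1 was at -0.01 with limma-voom and -0.0043 with the replicate block. Without 1 library, Tgfbr1 ranged from -0.07 to 0.08, Il11ra1 from -0.11 to 0.24, Stk3 from -0.02 to 0.05, Gabbr2 from -0.82 to 0.12 and Met from -0.36 to 0.32, and Met was at 0.02 with the replicate block. What moved these values was not tested. Size factors and library sizes without mitochondrially encoded genes changed no call of the 9. The setting without mitochondrially encoded genes was bound to change little, since TMM offsets the starting library sizes.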
